A study of Mus with 4 samples.

Results

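The genes described here encode the Wnt ligands, the proteins that release them, their Frizzled and other receptors, the R-spondins and their receptors, the secreted antagonists, and Axin2. They were chosen by a rule on the gene symbol, which was set with earlier results of these data known. The rule took every array probe for Wnt, Fzd, Sfrp, Dkk and Rspo genes that carry a number. It also took every probe for Frzb, Wif1, Lrp5, Lrp6, Ror1, Ror2, Ryk, Axin2, Porcn, Wls, Lgr4 and Lgr5. The chosen genes amount to 53 with 80 probes, of the 26893 named genes and 56605 probes on the array. Gene expression was measured by 1-colour Agilent arrays in an immortalized murine podocyte cell line, which had been differentiated for 10 to 14 days at 37 °C without interferon-γ. Both groups received a lentivirus at a multiplicity of infection of 200 to 500 for 24 h, and total RNA was taken 48 h after the vector was added. The 2 Venus samples carried the vector for Venus, a fluorescent protein used as the control, and the 2 OASIS samples carried one that encodes active, N-terminal OASIS, a transcription factor whose gene is Creb3l1. The comparison asks how Wnt-pathway transcripts differ when active OASIS is overexpressed in these cells, and it rests on 1 cell line with no sample free of virus.

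Wnt proteins are secreted lipid-modified ligands. Porcn attaches the lipid, Wls carries the ligand to the cell surface, and Frizzled receptors bind it together with the co-receptors Lrp5 and Lrp6 when the signal runs through β-catenin. Ror1, Ror2 and Ryk are receptors of β-catenin-independent signalling, the branch for which Wnt5a and Wnt11 are best known. R-spondins act through Lgr4 and Lgr5 to keep Frizzled receptors at the surface, the Sfrp proteins, Frzb and Wif1 bind Wnt ligands outside the cell, and Dkk1, Dkk2 and Dkk4 act on Lrp5 and Lrp6. Axin2 is a feedback inhibitor that β-catenin signalling itself turns on in many tissues. In the podocyte, a cell of the glomerular filter, Wnt signalling is known both for its part in development and for its activation in injury.

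Each value below is a log2 intensity from which that array's 75th percentile was subtracted, so that 0 is the level of that percentile, and it is compared only with the same probe on another array. The arrays lay on 1 slide, no spot was saturated, and between 33938 and 34418 of 59305 spots were well above background on each. Probes entered the test if both Venus arrays or both OASIS arrays (or all 4) were well above background, and a probe was called higher or lower at a fold over 2 or under 0.5 with an adjusted p under 0.1 by limma. With 2 arrays a group, the smallest two-sided p of an exact permutation test is 0.333. Nothing in the labels says that the replicates came from separate cultures, so that the p-values measure only the spread between these samples. For the podocyte markers, 13 genes were tested, while Nphs1 and Ptpro, which encode membrane proteins of the podocyte, were not well above background on both arrays of either group. Of these, Wt1 and Cd2ap each had 1 probe called higher (log2 fold change 4.62 and 1.09) and Kirrel and Plce1 each had 1 called lower (-1.11 and -1.26), but the other tested probes of these genes were not called, with -0.16 for Wt1, -0.37 and 0.31 for Cd2ap, -0.26 for Kirrel and 0.047 and -0.83 for Plce1. On the linear scale, as a multiple of the 75th percentile, the summed podocyte markers read 84.9 and 88.5 with Venus and 78.9 and 85.3 with OASIS. The sum of the endothelial markers was 1.06 and 0.945 with Venus and 2.62 and 1.92 with OASIS. Egfl7 was called higher, Pecam1 was tested and not called (log2 fold change 0.26, adjusted p = 0.161 by limma), and Cdh5, Emcn, Kdr, Tek, Tie1 and Vwf were untested. Sums were also taken over 3 other lists, in this order: mesangial and smooth muscle, leukocyte, and proximal tubule markers. They were 267, 19.6 and 22.8 on Venus 1 and 258, 18.6 and 31.0 on Venus 2. On OASIS 1 they were 239, 15.6 and 25.1, and on OASIS 2 they were 229, 15.4 and 41.6. In these 3 lists 2 probes were called, both for Lrp2 and both higher, while the 3 other Lrp2 probes, with -0.098, 0.012 and -0.16, were not. The part of these markers in the results below was not tested, and in bulk RNA, fewer cells of a type and less RNA per cell cannot be told apart.

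Of the 80 probes, 48 were tested, for 34 of the 53 genes, and 43 of them, for 29 genes, were well above background on all 4 arrays. With OASIS, 7 of the 48 probes were called higher (14.6%) and 2 lower (4.17%), where 5.89% of all 31598 probes tested were called higher and 2.47% lower. The 7 probes belonged to the ligand genes Wnt10a, Wnt6 and Wnt11, the receptor gene Fzd9 and the antagonist genes Sfrp1 and Wif1. The 2 lower probes belonged to Wnt5a and Lgr4, and in both genes another probe did not pass. Counted by any probe, 6 of 34 genes were higher (17.6%) and 2 lower (5.88%), beside 8.63% and 3.62% of all 16318 genes tested. Counted by the probe with the highest mean of each gene, 6 were higher and 0 lower, beside 6.21% and 1.85% of all genes. A probe that enters the test only through the group in which it is bright has to differ, and 4 of the 7 higher probes, those of Wnt10a, Wnt6, Sfrp1 and Wif1, entered through the OASIS arrays alone. Among the 43 probes well above background on all 4 arrays, 3 were higher (6.98%) and 2 lower (4.65%), where 4.56% and 2% of all such probes were.

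**Figure D1:**
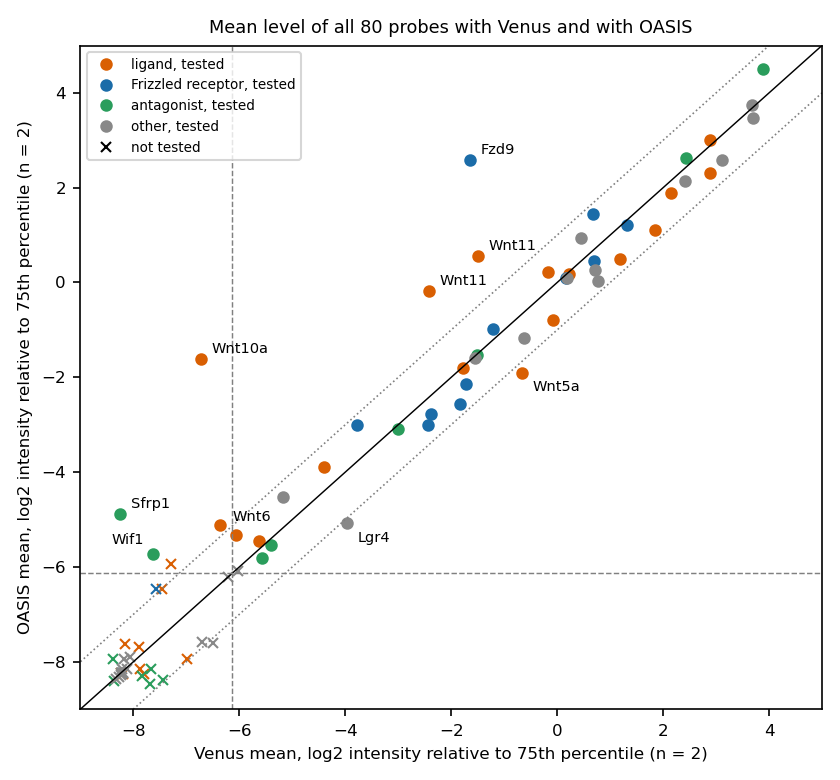
Mean log2 intensity relative to the 75th percentile with Venus (horizontal axis) and OASIS (vertical axis), 2 arrays each, for all 80 probes, coloured by role. The solid line marks equality, the dotted lines a 2-fold difference and the dashed lines the lowest signal well above background. Most of the 48 tested probes lie between the dotted lines, the probes of Wnt10a, Wnt6, Wnt11, Fzd9, Sfrp1 and Wif1 lie above them, 1 probe each of Wnt5a and Lgr4 lies below, and the untested probes, drawn as crosses, gather near or below the dashed lines. How far the points left of the vertical dashed line lie above the diagonal is not measured, since their Venus level is not well above background.

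Most of these genes moved little. The median log2 fold change was -0.063 over the 48 probes and -0.069 over all probes tested. The 2 OASIS arrays lay above both Venus arrays for 16 probes (33.3%, beside 28.6% of all probes), below both for 18 (37.5%, beside 39.4%) and overlapped with them for 14. By the adjusted p alone, without a limit on the fold, 12 probes were higher (25.0%, beside 17% of all probes) and 13 lower (27.1%, beside 19.7%). The 39 probes that were not called, for 28 genes, had log2 fold changes from -0.76 to 0.77, and for 30 of them the 95% confidence interval stayed within a 2-fold difference in either direction.

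Of the 11 tested ligand genes, 3 had a probe called higher and 1 a probe called lower, beside 8.63% and 3.62% of all genes tested. Wnt10a, on chromosome 1 in band qC3, encodes a ligand of β-catenin signalling known from skin, hair and teeth. Its log2 value was -6.66 on Venus 1, -6.79 on Venus 2, -1.23 on OASIS 1 and -2.0 on OASIS 2. Neither Venus array was well above background, whereas both OASIS arrays were. With OASIS, Wnt10a was 22.8-fold above the lowest signal well above background. The adjusted p was 0.00286 by limma for a fitted log2 fold change of 5.12 (standard error 0.28), whose size depends on Venus values under that signal. For this bound, as for each one below, the mean OASIS level was set against the Venus arrays with each taken at that lowest signal, or at the probe itself where it read higher. Such a bound carries no error, and it is not a minimum under other processing. Some probes that read above that lowest signal were still not well above background.

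Wnt6 is the neighbour of Wnt10a: in the RefSeq annotation of GRCm38.p6 the genes are adjacent among protein-coding genes on chromosome 1. Wnt6 encodes a ligand known from epithelia of the developing kidney. It read -6.34 and -6.39 with Venus and -5.11 and -5.13 with OASIS. Again only the OASIS arrays were well above background, and the bound for Wnt6 was 2.0-fold (fitted log2 fold change 1.25, standard error 0.099, adjusted p = 0.00564 by limma). Both genes entered the test through the OASIS arrays alone, so that a call could only be a higher one, and Wnt6 lay within about 1 log2 unit of the lowest detectable signal on every array. With normexp background correction the log2 fold change of Wnt6 was 0.37, below the 2-fold limit, and that of Wnt10a was 2.31, past it. The other neighbouring pairs among these ligands, Wnt3a with Wnt9a, Wnt9b with Wnt3 and Wnt10b with Wnt1, each had 1 tested gene, and none of the 3 tested genes was called.

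Wnt11, a ligand of β-catenin-independent signalling that guides branching of the ureteric bud, lies on chromosome 7 in band qE2 and is read by 2 probes annotated to different RefSeq transcripts. Both rose. The probe A_51_P503131 read -1.42 and -1.57 with Venus and 0.83 and 0.28 with OASIS, a log2 fold change of 2.05 (standard error 0.21, adjusted p = 0.00819 by limma). The probe A_55_P2507365 read -2.21 and -2.63 with Venus and 0.066 and -0.43 with OASIS, a log2 fold change of 2.23 (standard error 0.24, adjusted p = 0.00837 by limma). All 8 of these values were well above background, and the groups of each probe were 1.70 and 1.78 apart at their nearest arrays, so that Wnt11 was the only ligand gene called higher with both groups well above background.

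Wnt5a, on chromosome 14 in band qA3 and the best studied ligand of the β-catenin-independent branch, gave 3 different readings. Its probe A_55_P2219765 read 2.17 and 2.15 with Venus and 1.82 and 1.94 with OASIS, and A_52_P250865 read 0.22 and 0.21 with Venus and 0.11 and 0.24 with OASIS. The third probe, A_51_P162272, read -0.64 and -0.69 with Venus and -1.82 and -1.99 with OASIS. Only this probe was called. It fell by 1.23 on the log2 scale, with a 95% confidence interval from -1.53 to -0.93, while the interval of the first ran from -0.55 to 0.0015 and that of the second from -0.32 to 0.24. The interval of the called probe does not overlap with either of the others. All 3 probes carry the same RefSeq transcript in the array annotation, all were well above background on the 4 arrays, and the difference between probes was not tested. With normexp background correction the fall of the third probe was 0.98 on the log2 scale, just short of the 2-fold limit.

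The other tested ligand genes were not called. Wnt7b, which is known from the kidney medulla and the lung, was lower by both probes without reaching 2-fold. Its first probe, A_55_P2823847, read 2.89 and 2.89 with Venus and 2.23 and 2.38 with OASIS, and the log2 fold changes were -0.59 and -0.70 (adjusted p = 0.0269 and 0.0169 by limma). The 2 probes of Wnt7a, its close relative, gave -0.76 and -0.71 (adjusted p = 0.111 and 0.0901), and without OASIS replicate 2 the first of them gave -1.12 and passed the threshold. In all 4 probes of Wnt7a and Wnt7b, both OASIS arrays lay below both Venus arrays, as they did in 39.4% of all probes tested. Wnt9a, another ligand, read 2.79 and 2.98 with Venus and 2.94 and 3.07 with OASIS, and the groups overlapped. Wnt4, which drives formation of the nephron, had a log2 fold change of 0.38 (95% confidence interval 0.031 to 0.73), Wnt5b had 0.52 and 0.18, Wnt1 had -0.018 and Wnt3 had 0.73. Of the Venus arrays, Wnt3 was well above background on replicate 2 only, and no size can be read from a fit without that array, since the lone Venus array is then not well above background. Wnt10b, Wnt16, Wnt2, Wnt2b, Wnt3a, Wnt8a, Wnt8b and Wnt9b had no tested probe, and among them Wnt2 and Wnt8b were well above background on 1 OASIS array each.

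**Figure D2:**
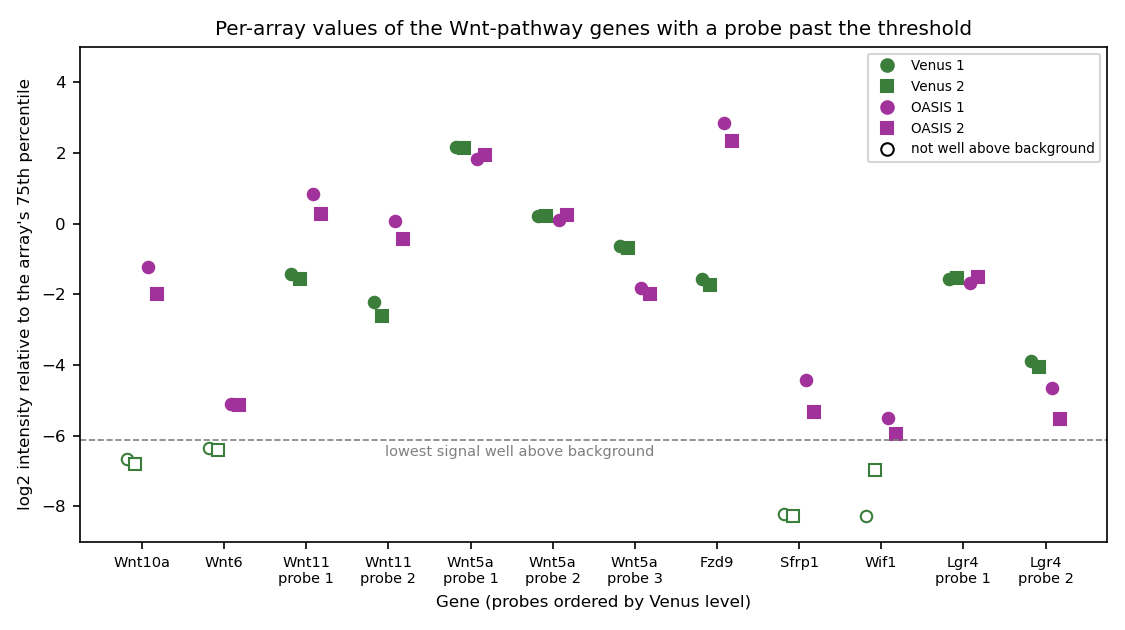
Log2 intensity relative to the 75th percentile on each array for every tested probe of the 8 genes with a call, Venus in green and OASIS in purple, circles for replicate 1 and squares for replicate 2. Open symbols are not well above background, and the dashed line is the mean over the arrays of the lowest signal that is. The Venus symbols of Wnt10a, Wnt6, Sfrp1 and Wif1 are open, those of Wnt11 and Fzd9 are filled and lie below the OASIS symbols, and only 1 of the 3 Wnt5a probes and 1 of the 2 Lgr4 probes has an OASIS mean over 2-fold lower.

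The release machinery was present in both groups and was not called. Porcn, the acyltransferase that lipidates Wnt ligands, read 0.69 and 0.72 with Venus and 0.22 and 0.32 with OASIS, a log2 fold change of -0.43 (standard error 0.10, adjusted p = 0.0447 by limma). Wls, the carrier, had values of 3.11 and 3.13 with Venus and 2.51 and 2.67 with OASIS by A_55_P2912896 (log2 fold change -0.53, adjusted p = 0.0338 by limma). Its probe A_51_P202033 read 3.63 and 3.76 against 3.26 and 3.67, and the groups overlapped. All 3 probes of the release genes had a negative log2 fold change of less than 2-fold.

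Among the Frizzled receptor genes, 1 of 9 tested was called higher, beside 8.63% of all genes tested, and 0 lower. Fzd9, on chromosome 5 in band qG2, encodes a receptor with known roles in bone and in the hippocampus. It read -1.57 on Venus 1, -1.73 on Venus 2, 2.85 on OASIS 1 and 2.33 on OASIS 2. The groups were 3.90 apart at their nearest arrays and all 4 arrays were well above background. Fzd9 rose by 4.23 on the log2 scale (standard error 0.20, 95% confidence interval 3.70 to 4.77, adjusted p = 0.00246 by limma), which is 18.8-fold, the largest rise measured on both sides among the tested probes of these genes. Under normalization by quantiles or to the median, the authors' scaled values, normexp, and with each array left out, its log2 fold change stayed between 3.95 and 4.49.

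The other Frizzled receptors stayed within 2-fold. Fzd2 read 0.67 and 0.68 with Venus and 1.55 and 1.33 with OASIS, a log2 fold change of 0.77 (adjusted p = 0.0189 by limma). Fzd3 had 0.77 (adjusted p = 0.0561), and without OASIS replicate 2 it had 1.01 and passed the threshold. Fzd4, a receptor known for its role in vessels of the retina, had -0.73 and -0.57 by its probes (adjusted p = 0.0324 and 0.0425 by limma), and Fzd5 had -0.42 and -0.38. In these 4 genes the groups did not overlap, and neither did they in Fzd1 and Fzd8, where the nearest arrays were 0.072 and 0.059 apart. Over the whole array such a separation was common, upward in 28.6% and downward in 39.4% of all probes tested. Fzd6 read 1.21 and 1.43 with Venus and 1.02 and 1.41 with OASIS, and Fzd1 read 0.71 and 0.69 against 0.30 and 0.62. The log2 fold changes of Fzd1, Fzd6, Fzd7 and Fzd8 lay between -0.24 and 0.23, and Fzd10 had no tested probe.

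The co-receptor Lrp5 read 0.20 and 0.16 with Venus and 0.045 and 0.12 with OASIS, a log2 fold change of -0.096 with a 95% confidence interval from -0.36 to 0.17. Lrp6, which shares its role, was read in opposite directions by 2 probes, neither of which was called. A_55_P2118391 read 0.47 and 0.41 with Venus and 1.03 and 0.85 with OASIS, and A_55_P2041360 read -0.59 and -0.66 with Venus and -0.96 and -1.39 with OASIS. Their log2 fold changes were 0.50 (95% confidence interval 0.19 to 0.80) and -0.55 (-1.0 to -0.094), and neither set of arrays overlapped. No single direction can be given for Lrp6 from these probes.

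Ror1, a receptor tyrosine kinase that binds Wnt5a, read 0.70 and 0.86 with Venus and -0.019 and 0.10 with OASIS. The OASIS arrays lay below, and the log2 fold change was -0.74 (standard error 0.12, adjusted p = 0.0189 by limma), which is 1.67-fold lower and not past the 2-fold limit. Ryk, another Wnt receptor with an atypical kinase domain, read 3.66 and 3.70 with Venus and 3.64 and 3.86 with OASIS by 1 probe and 2.46 and 2.36 against 2.07 and 2.21 by another, with log2 fold changes of 0.069 and -0.27. Ror2 had no tested probe.

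None of the R-spondin genes Rspo1, Rspo2, Rspo3 and Rspo4 had a probe well above background on any array, and neither did Lgr5. Lgr4, the receptor that was detected, lies on chromosome 2 in band qE3. Its probe A_52_P276727 read -1.58 and -1.53 with Venus and -1.69 and -1.51 with OASIS, and the groups overlapped. Its probe A_52_P278566 read -3.88 and -4.05 with Venus and -4.64 and -5.53 with OASIS, and fell by 1.12 on the log2 scale, with a standard error of 0.31 (adjusted p = 0.0644 by limma). The OASIS arrays of this probe were 0.89 apart, and its call was lost without Venus replicate 1 (log2 fold change -1.04, adjusted p = 0.204), without Venus replicate 2 (-1.21, adjusted p = 0.159) and without OASIS replicate 2 (-0.68, adjusted p = 0.0582). The remaining Lgr4 probe was not well above background on any array.

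Both antagonist genes that were called had Venus levels not well above background. Sfrp1, on chromosome 8 in band qA2, encodes a secreted protein with a Frizzled-like domain that binds Wnt ligands. It read -8.22 and -8.28 with Venus and -4.44 and -5.34 with OASIS. Its bound was 2.36-fold (fitted log2 fold change 3.36, standard error 0.31, adjusted p = 0.0070 by limma). Wif1, a Wnt-binding antagonist on chromosome 10 in band qD2, read -8.27 and -6.97 with Venus and -5.50 and -5.97 with OASIS. The bound for Wif1 was 1.31-fold (fitted log2 fold change 1.89, standard error 0.46, adjusted p = 0.0488 by limma). Both genes entered the test through the OASIS arrays alone, so that a call could only be a higher one. The groups did not overlap in either gene, but the filter favours such a separation, which 28.6% of all probes tested showed upward. The OASIS levels of Wif1 lay close to the lowest signal well above background. The call of Wif1 was lost without OASIS replicate 1 (fitted log2 fold change 1.66, adjusted p = 0.158) and without OASIS replicate 2 (2.12, adjusted p = 0.102), and its fitted value lay between 1.24 and 2.54 with each array left out. With normexp background correction, the log2 fold changes of Sfrp1 and Wif1 were 0.49 and 0.39.

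Dkk3, a relative of the Dickkopf antagonists, was read by 3 probes and none was called. A_55_P2083609 read 3.92 and 3.85 with Venus and 4.43 and 4.6 with OASIS (log2 fold change 0.63, adjusted p = 0.0252 by limma). A_52_P220176 read 2.45 and 2.43 against 2.72 and 2.53, and A_55_P2740153 read -1.5 and -1.52 against -1.41 and -1.65. The first probe separated the groups by 0.51 at the nearest arrays, the second by 0.078, and the third overlapped. Dkk2, Sfrp4 and Sfrp5 had log2 fold changes of -0.085, -0.15 and -0.24, each with overlapping groups. Dkk1, Dkk4, Frzb and Sfrp2 had no tested probe and were not well above background on any array.

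Axin2, the feedback gene of the β-catenin branch, read -5.27 on Venus 1, -5.09 on Venus 2, -4.81 on OASIS 1 and -4.24 on OASIS 2. The OASIS arrays were higher by 0.28 at the nearest pair. The log2 fold change was 0.66 (standard error 0.22, 95% confidence interval 0.074 to 1.24, adjusted p = 0.0957 by limma), 1.58-fold and not past the 2-fold limit. A second Axin2 probe was not tested.

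**Figure D3:**
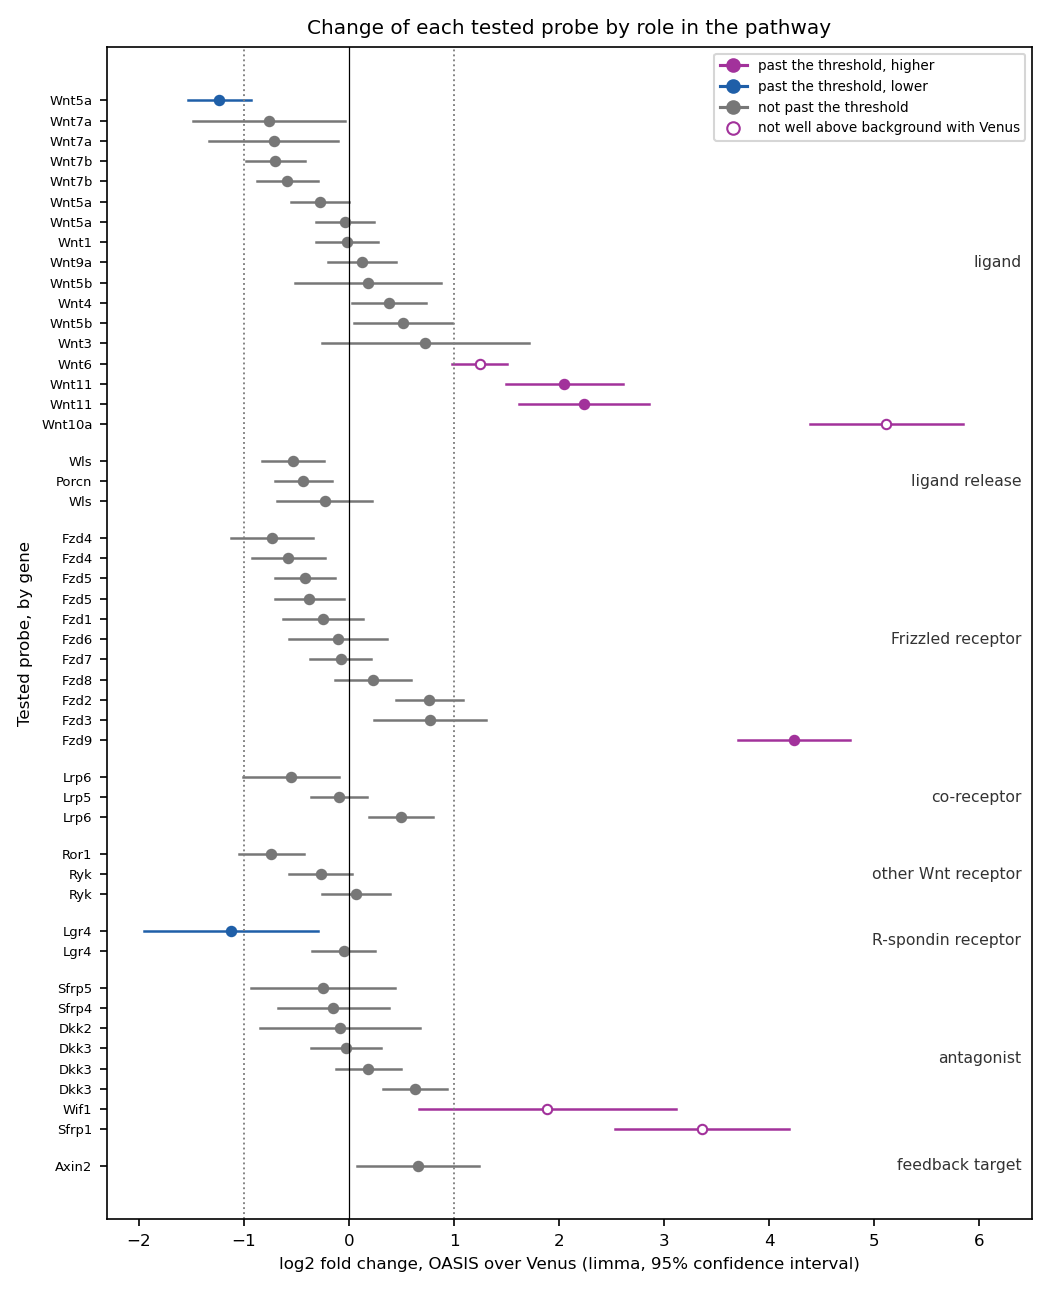
Log2 fold change of OASIS over Venus with its 95% confidence interval from limma for each of the 48 tested probes, grouped by role, with dotted lines at a 2-fold difference. Purple marks probes called higher, blue those called lower, and open symbols those not well above background with Venus. The 7 purple points lie in the ligand, Frizzled and antagonist groups, and the gray points, not called, stay between the dotted lines.

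Probes of 1 gene did not always give the same log2 fold change. Of the 12 genes with 2 or 3 tested probes, 9 had log2 fold changes of the same sign and 3, Dkk3, Lrp6 and Ryk, had both signs. The gap between the highest and the lowest probe was 1.2 for Wnt5a, 1.07 for Lgr4, 1.05 for Lrp6 and 0.65 for Dkk3. In Fzd4, Fzd5, Wnt7a, Wnt7b and Wnt11 it was 0.19 or less. Which transcript forms these probes read was not analysed here.

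**Figure D4:**
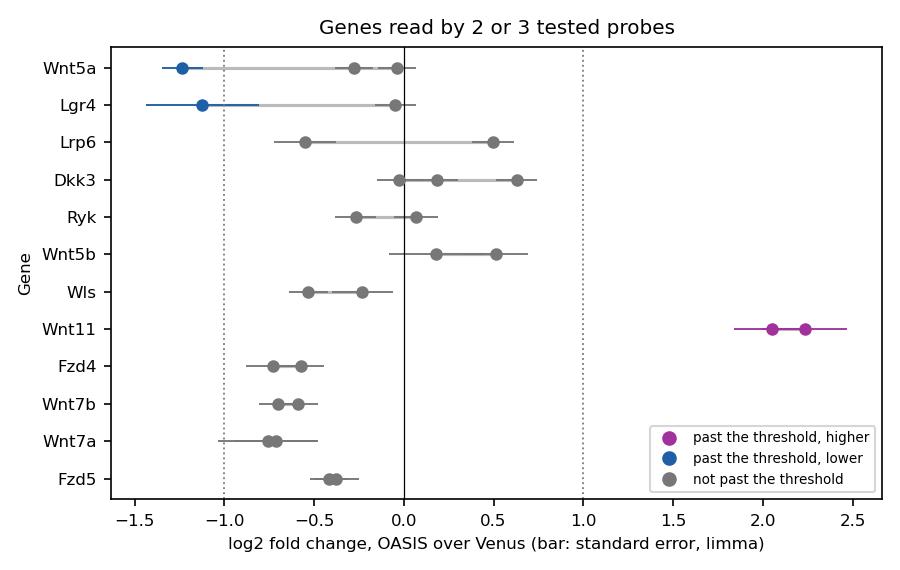
Log2 fold change of OASIS over Venus, with the standard error from limma, for each probe of the 12 genes with 2 or 3 tested probes, ordered by the gap between probes, with dotted lines at a 2-fold difference. The probes of Wnt5a, Lgr4 and Lrp6 spread over more than 1 log2 unit, and those of Lrp6 lie on both sides of 0, whereas both Wnt11 probes lie near 2.

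The OASIS arrays differed more from each other than the Venus arrays did. Over the 48 probes the median SD was 0.074 with Venus and 0.15 with OASIS, beside 0.080 and 0.12 over all probes tested, and the OASIS SD was the larger for 36 of the 48. In each of the 7 higher probes, OASIS 1 lay farther from the Venus arrays than OASIS 2, as it did in 68.7% of all 1861 higher probes. In both lower probes, OASIS 2 lay farther, while among all 780 lower probes OASIS 1 lay farther in 50.1%.

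The genes that act around and below these receptors were counted on a fixed list of 104 genes on the array, of which 93 genes with 200 probes were tested. With OASIS, 18 of these probes were higher (9%) and 10 lower (5%), and their median log2 fold change was -0.027, beside 5.89% higher, 2.47% lower and a median of -0.069 over all probes tested. Probes that entered the test through the OASIS arrays alone, such as a Camk2d probe below, could only be called higher. Among probes well above background on all 4 arrays, 13 of the list were higher and 9 lower. The number of list probes that passed this filter is not given here. These counts can therefore not be set against the 4.56% and 2% over the whole array. A second list, of genes with a Wnt term in the KEGG pathway database, had 203 tested probes outside the 53 genes. Of these, 15 were higher (7.39%) and 6 lower (2.96%), with a median log2 fold change of -0.084. By any probe, 8.63% of all genes tested were higher and 3.62% lower, which the gene counts of the lists below stand against. In the planar cell polarity and calcium branch, 8 of 28 tested genes had a higher probe and 4 a lower one. The largest change of the fixed list was that of Celsr3, an adhesion receptor of planar cell polarity, which read -5.42 and -5.58 with Venus and 0.81 and 0.19 with OASIS, a rise of 6.0 on the log2 scale (standard error 0.23, adjusted p = 0.0019 by limma) that was 3.99 with normexp background correction. Of the probes of Camk2b, a kinase of calcium signalling, 1 fell by 1.59, from -3.24 and -2.95 to -4.65 and -4.71, and the other, with 0.34, was not called. Prickle3, which encodes a polarity protein, rose by 1.43 on its 1 tested probe, from -3.44 and -3.74 to -1.97 and -2.35. Nfatc1, a calcium-regulated transcription factor, had 1 probe that rose by 1.43, from -2.14 and -2.17 to -0.56 and -0.89, while its other probe gave 0.61. Mapk8, the kinase JNK1, had 1 probe that rose by 1.42, from -3.68 and -3.54 to -2.21 and -2.16, while its other probes gave -0.36 to 0.80. A Camk2d probe not well above background with Venus (-6.41 and -6.07) read -4.90 and -4.80 with OASIS, a bound of 2.35-fold. The 4 other Camk2d probes were not called, and 3 of them gave -0.81 to -0.98. With normexp, the log2 fold changes of the called Camk2b, Prickle3, Mapk8 and Camk2d probes were -0.73, 0.94, 0.97 and 0.43. Each was short of the 2-fold limit.

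In the intracellular β-catenin pathway, 6 of 37 tested genes had a higher probe and 2 a lower one. Gsk3b, the kinase that marks β-catenin for destruction, had a probe in each direction (-1.06 and 1.05) and another, with 0.56, that was not called. Btrc, the ubiquitin ligase subunit that recognises marked β-catenin, read -3.77 and -3.56 with Venus and -1.82 and -1.40 with OASIS and rose by 2.06 on this probe (1.46 with normexp), while its other probe gave 0.55 and was not called. Tle1, a corepressor of TCF factors, read -0.26 and -0.18 with Venus and 1.30 and 1.28 with OASIS and rose by 1.51 on this probe, with 0.90 and 0.85 on the others, which were not called. Of 24 tested β-catenin target genes, 1 had a higher probe and 2, Myc and Cd44, a lower one, while another Myc probe (-0.82) and the other Cd44 probes (0.17 and -0.29) were not called. The higher gene, Tnfrsf19, was called by 2 probes. The one with the larger change read -6.86 and -8.45 with Venus and -3.46 and -4.34 with OASIS, a bound of 4.66-fold. With normexp, this probe gave a log2 fold change of 0.99, just short of the 2-fold limit. Among 10 tested genes that modify ligands and receptors, Lgr6, a relative of Lgr4, was called higher by 2 probes (log2 fold change 2.33 and 1.14), the first with values of -5.60 and -6.85 with Venus and -3.43 and -4.36 with OASIS, and Ptk7, a polarity co-receptor, fell by 1.03 on 1 probe and gave -0.21 on another. Both Lgr6 probes were well above background on only 1 Venus array, so that the size of these changes is uncertain. With normexp, the first Lgr6 probe gave 0.79, short of the 2-fold limit. The first Lgr6 call was lost without OASIS replicate 1 (log2 fold change 1.86, adjusted p = 0.124 by limma).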

How the data were processed

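The authors' deposited scanner output, from Agilent Feature Extraction 12.1.0.3, gives background-corrected intensity per spot, with flags for outliers, saturation and signal over background. A second deposited table, from the authors, holds scaled intensity and a detection score with gene symbols and chromosome bands. The array build named in the file header is mm9, and no coordinates or sequences are given here. RefSeq, used for names and neighbours, matched 72 of 80 member accessions to the same symbol, and the other 8 were not found.

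Control and outlier spots were left out, the 75th percentile of each array was subtracted on the log2 scale, and a probe's spots were averaged. It counted as above background when at least 0.5 of its spots were. Groups were fitted by lmFit and eBayes of limma 3.58.1 (R 4.3.3; files read by the data.table package, version 1.17.8), and the Benjamini-Hochberg adjustment covered all 31598 probes tested. The threshold is that of the study's methods, which name no test for the array. The fit was tested on simulated data. Figures were drawn with matplotlib 3.10.9.

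The members, the gene lists and the rule for named genes were chosen with earlier results of these data known. The rule gives array values for each called probe and the other tested probes of its gene, the 3 brightest ligand, Frizzled and antagonist probes, Axin2 and the release, co-receptor and Ror and Ryk genes, and up to 10 called probes of other pathway genes; Gsk3b, Ptk7, Myc and Cd44 were named after their values were seen. Alternatives were quantile and median scaling, normexp with an offset of 50 on median intensities, the authors' scaled values, other filters, kept outliers, the t-test that the methods name for 2 groups, an intensity trend, an adjusted p under 0.05, a replicate block and leaving out each array.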

Additional observations from a re-analysis of the deposited data

How the results depend on the processing

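Across the alternatives that kept all arrays, the 9 called probes gave 95 values, of which 82 kept direction and call, 13 fell short of the threshold and 0 changed sign. Normexp gave 972 higher and 250 lower of all probes, 4 and 0 of the member probes, 3 higher member genes, and 6 and 3 other pathway probes. Under it the probes of Wnt6, Wnt5a, Sfrp1, Wif1 and Lgr4 fell short, as did those of Tnfrsf19, Lgr6, Camk2b, Prickle3, Mapk8 and Camk2d, and Sfrp5 gave 0.011. The methods' t-test with Benjamini-Hochberg adjustment gave 550 and 175 of all probes, 3 and 1 member probes, 3 higher member genes, and 3 and 3 other pathway probes, and 7 member probes had a fold past the limit at an unadjusted p under 0.05. It did not call either Wnt11 probe, Sfrp1, Wif1 or the Lgr4 probe, and of the 10 other pathway probes with array values it called Celsr3, Tle1 and Mapk8. Without a filter on dim probes 7 member probes were higher and 1 lower, and 7 of these 8 were among the 9, since the calls of Wif1 (adjusted p = 0.171) and the Lgr4 probe (adjusted p = 0.200) were lost, Lgr6 (adjusted p = 0.151) was lost among the other pathway genes, and Wnt8b was added. At an adjusted p under 0.05, 1 member probe was lower. With the filter on all 4 arrays, 3 member probes and 2 member genes were higher, since Wnt10a, Wnt6, Sfrp1 and Wif1 were then not tested. Normexp adds an offset of 50 to each intensity, which by construction makes the fold of a dim probe smaller. The part of this offset in each call lost under normexp was not tested, and elsewhere the cause was not tested either.

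Leaving out 1 array at a time, with the lone array of that group taken to vary like the other group, gave 1799 to 2263 higher and 729 to 1024 lower of all probes, 6 to 9 and 1 to 2 member probes, 5 to 8 higher and 0 to 1 lower member genes by the brightest probe, and 15 to 20 and 7 to 12 other pathway probes. The lower member gene appeared without OASIS replicate 2, for Wnt7a, and Wnt2, Wnt8b and Fzd3 were then called higher, as was Wnt3 without Venus replicate 2. Log2 fold changes near 0 changed sign: Sfrp4 (-0.41 to 0.12), Sfrp5 (-0.59 to 0.11), Wnt1 (-0.086 to 0.049), Fzd6 (-0.30 to 0.092), Dkk2 (-0.49 to 0.32), Wnt5b by A_51_P137991 (-0.18 to 0.54), Lgr4 by A_52_P276727 (-0.14 to 0.040), Wnt5a by A_52_P250865 (-0.10 to 0.029), Dkk3 by A_55_P2740153 (-0.15 to 0.098) and Ryk by A_55_P2806820 (-0.041 to 0.18). With the replicate number as a block there were 1879 higher and 823 lower probes, and 7 and 2 member probes, the same 9 as without it. Same-numbered arrays deviated together with a correlation of 0.26 over 2 pairs, which does not settle whether the numbers pair the samples. Low signal over background limits probes such as those of Wnt3, Wnt6, Wif1, Sfrp4, Sfrp5 and the second Wnt5b probe.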
